A study of Brassica rapa with 8 samples.

Results

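The 9 gene models described here are the *B. rapa* homologues of MYB34, MYB51 and MYB122, the regulators of indolic glucosinolate biosynthesis. They were listed by identifier as the homologues of these regulators, 9 out of 38200 gene models that the table holds, with earlier results of these data known. MYB34 has 4 homologues (Bra035954, Bra013000, Bra029349 and Bra029350), MYB51 has 3 (Bra016553, Bra031035 and Bra025666) and MYB122 has 2 (Bra015939 and Bra008131). The homology of each identifier was taken as given and was not checked by sequence. RNA-seq was done on poly(A)+ RNA of Chiifu-401-42, a Chinese cabbage accession, in 8 samples of 6 tissues. Root and leaf were represented by 2 samples each, and stem, flower, silique and callus by 1 sample each. Root, stem and leaf were taken from plants at 7 weeks of age, flowers from blooming plants without the floral shoot, and siliques 15 days after pollination, whereas callus came from tissue culture. Per the labels, the plants stood in a greenhouse at 15 to 25°C and the callus at 25°C. The paper's methods instead name a single greenhouse temperature within that range. All plants were untreated and of the same genotype.

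Indolic glucosinolates are sulphur-containing defence compounds of the cabbage family that are made from the amino acid tryptophan. In *Arabidopsis thaliana*, MYB34, MYB51 and MYB122 are closely related R2R3-type MYB transcription factors that activate the genes converting tryptophan to these compounds, among them CYP79B2, CYP79B3 and CYP83B1. In that species MYB51 is known mainly for its role in the shoot and MYB34 for its role in the root, and MYB122 has an accessory role. The *Brassica* lineage went through a whole genome triplication after its split from the *Arabidopsis* lineage, so several homologues of each *Arabidopsis* gene can be present.

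Expression was given by the authors as FPKM, which is the number of fragments scaled to the length of the transcript and to the size of the library, with the bounds of a 95% confidence interval, and a gene was taken as expressed where the lower bound was above 0. The number of fragments behind a value was derived from the width of its interval. Sequencing depth, in fragments per FPKM, was highest in root 1 (1.90 times that of stem, the shallowest sample) and leaf 1 (1.90 times), and between 1.05 and 1.27 times in the others. Totals of fragments over all genes ranged from 7933658 in silique to 16417413 in root 1. They were predicted from the FPKM, the depth of the sample and a median factor per gene, not summed from the intervals. The 4 most abundant genes held 20.0% of the summed FPKM in callus, 14.0% in leaf 2 and 8.89% in silique, against 1.40% to 3.91% in the other samples. Because FPKM is relative to the total, this lowers the values of all other genes in those samples. The identifiers carry no gene names in the sources used here, so the labelled tissues were not checked against marker genes, and the enzymes of the pathway were not looked up. The samples are whole tissues, in which fewer cells of a type and less RNA per cell cannot be told apart.

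The 3 homologue groups had different distributions over the tissues. Summed over its 4 copies, the MYB34 group was most abundant in stem, with a summed FPKM of 225, followed by leaf (66.8 ± 0.624, SD, n = 2) and root (28.6 ± 6.15, SD, n = 2). It was low in callus (4.19), flower (0.958) and silique (0.293). The MYB51 group was most abundant in callus, with 63.6, followed by root (22.7 ± 1.56, SD, n = 2), and stood at 6.06 in stem, 4.75 ± 0.310 (SD, n = 2) in leaf, 2.78 in silique and 0.768 in flower. The MYB122 group was at similar levels in callus (11.1) and root (10.5 ± 0.0968, SD, n = 2), and at or below 1.15 in each sample of the other tissues.

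**Figure D1:**
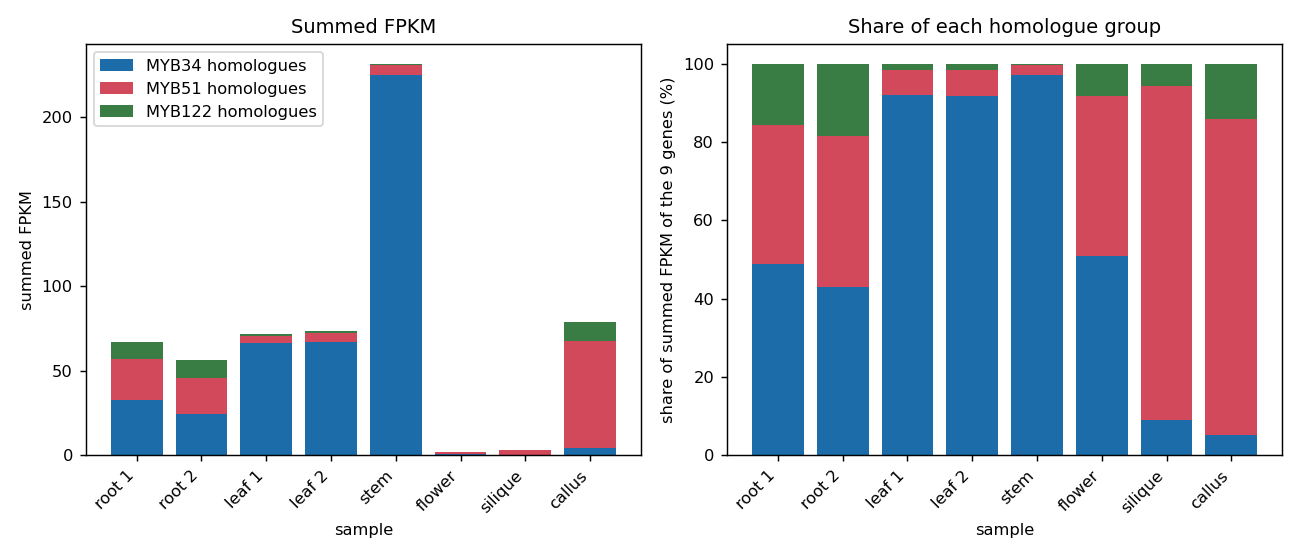
Summed FPKM of the MYB34, MYB51 and MYB122 homologues in each of the 8 samples (left, stacked bars) and the share of each group in the summed FPKM of the 9 genes, in percent (right). The MYB34 homologues made up 97.0% of the sum in stem, whereas the MYB51 homologues made up 80.6% in callus.

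The shares of the groups among the 9 genes, which as ratios within a sample are free of its scaling, also differed between tissues. MYB34 homologues made up 97.0% of the summed FPKM of the 9 genes in stem and 92.1% and 91.7% in the 2 leaf samples. In root the share was 48.9% and 43.0%, with 35.4% and 38.5% from MYB51 homologues and 15.7% and 18.5% from MYB122 homologues. In callus, MYB51 homologues held 80.6% and MYB34 homologues 5.31%. The 2 samples of root and the 2 samples of leaf differed by less than 6 percentage points in each share, and the root and leaf values did not overlap. Flower and silique had the lowest sums, 1.88 and 3.26, against 56.3 to 232 in the other 6 samples.

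The highest single value of the 9 genes was that of the MYB34 homologue Bra029349, on Scaffold000065 from 880953 to 892935. Its FPKM was 134 in stem (95% confidence interval 126 to 142), 47.2 and 55.2 in the 2 leaf samples, 7.27 and 6.11 in the 2 root samples and 0.958 in flower. It rested on 1 fragment in callus (0.0976) and was listed at 0 in silique, where 3 fragments would have given an FPKM of 0.330. The order stem, leaf, root, flower and callus held with no overlap of the intervals. Stem exceeded the mean of leaf by 2.62-fold and that of root by 20.0-fold, and it was at least 406-fold higher than silique when silique was set at 3 fragments. In stem Bra029349 stood above 97.5% of all gene models.

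Bra013000, on Scaffold000013 from 2805763 to 2807224, was also highest in stem. Its FPKM was 85.7 there (95% confidence interval 79.8 to 91.7), 24.1 and 16.5 in the root samples, 18.6 and 11.4 in the leaf samples and 3.46 in callus. It was 0.293 in silique, on 3 fragments, and was listed at 0 in flower. Stem was 4.22-fold above the mean of root and 5.73-fold above the mean of leaf. In contrast to Bra029349, the values of root and leaf overlapped.

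Between these 2 copies, the more abundant one changed with the tissue. The FPKM of Bra029349 was 2.55 and 4.86 times that of Bra013000 in the 2 leaf samples and 1.57 times in stem. In root the order was opposite, with Bra013000 at 3.32 and 2.70 times Bra029349, and in callus it was 3.46 against 0.0976. This ratio did not overlap between the leaf and root samples. An exact two-sided permutation test of the log2 ratio gave p = 0.333 (n = 2 in each tissue), which is the smallest p that 2 against 2 samples allow. As shares of the summed FPKM of the MYB34 homologues, Bra013000 made up 73.3% and 68.2% in root, and Bra029349 made up 71.2% and 82.1% in leaf and 59.7% in stem.

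Bra029350 lies on Scaffold000065 from 886093 to 893046 and overlaps the locus of Bra029349 over 6842 bases. The table gives no strand, and the assignment of reads within the shared stretch cannot be seen from it, so the values of both models are uncertain to that extent. Of the 54 values above 0 among the 9 genes, 51 corresponded to whole fragments within 0.1, and the 3 others all belonged to Bra029349. Bra029350 had an FPKM of 4.72 in stem (95% confidence interval 3.32 to 6.13, 45 fragments), 0.553 and 0.668 in leaf and 0.441 and 0.579 in root, and was listed at 0 in flower, silique and callus. Leaf and root overlapped, and stem was 7.74-fold above the mean of leaf. Bra029349 exceeded it by 10.6-fold to 85.4-fold in the 5 samples in which both were expressed, least in root and most in leaf.

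The fourth MYB34 homologue, Bra035954, on Scaffold000110 from 624020 to 625202, was low throughout and did not share the maximum in stem. Its FPKM was 1.07 and 1.02 in root (19 and 12 fragments) and 0.634 in callus (7 fragments). Stem had 0.215, on 2 fragments, which is not expressed by the confidence interval. It was listed at 0 in both leaf samples, flower and silique, where 3 fragments would have given between 0.170 and 0.306. The intervals of root and callus overlapped. It contributed 3.26% and 4.20% of the summed FPKM of the MYB34 homologues in root, and 15.1% in callus.

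**Figure D2:**
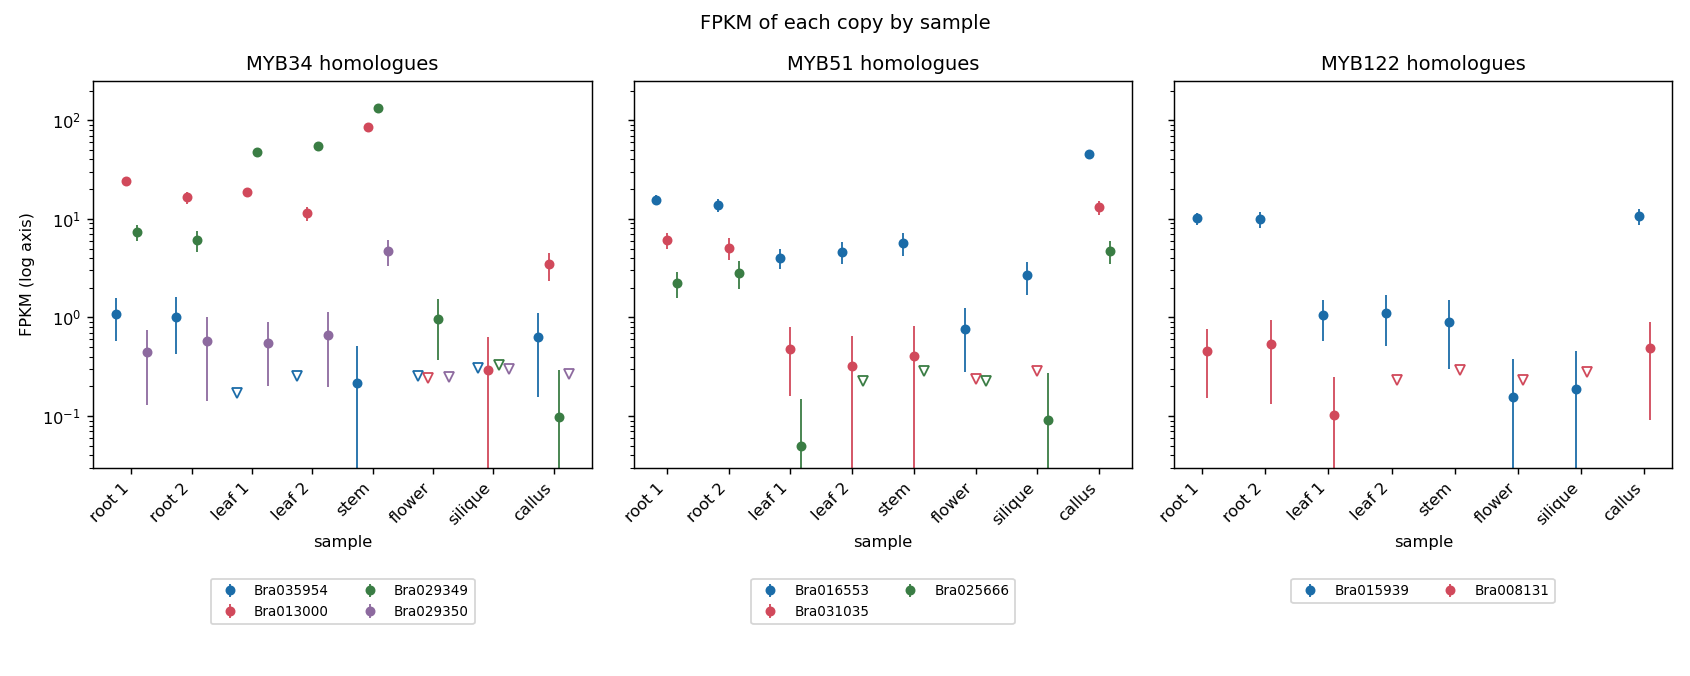
FPKM of each copy in the 8 samples, on a log axis, with the deposited 95% confidence interval as a vertical bar (bars that reach the lower edge have a lower bound of 0). Open triangles mark values listed at 0 and are drawn at the FPKM that 3 fragments would give. Bra013000, Bra029349 and Bra029350 were highest in stem, and the MYB51 homologues in callus.

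All 3 MYB51 homologues were highest in callus and next highest in root. Bra016553, on Scaffold000020 from 1387862 to 1389497, was the most abundant and the only one of the 9 genes expressed in all 8 samples. In callus the FPKM reached 45.8 (95% confidence interval 41.9 to 49.7). The root samples had 15.5 and 13.7, stem 5.65, the leaf samples 4.0 and 4.65, silique 2.68 and flower 0.768. Callus exceeded the mean of root by 3.14-fold and that of leaf by 10.6-fold, with intervals apart from each other, and root was above stem by 2.58-fold. Stem and leaf overlapped, and so did leaf and silique.

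Bra031035, on Scaffold000074 from 304062 to 305487, had an FPKM of 13.1 in callus (95% confidence interval 10.96 to 15.2) and of 6.07 and 5.11 in root. It stood at 0.481 and 0.323 in leaf and 0.406 in stem, on 9, 4 and 4 fragments, and was listed at 0 in flower and silique. The lower bound in stem was 5.6e-17, a rounding residue, and without it the gene was not expressed there. Callus was 2.34-fold above the mean of root with no overlap of intervals, and root was 13.9-fold above the mean of leaf.

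Bra025666, on Scaffold000049 from 3495 to 4812, was the least abundant of the group and was expressed in root and callus only. It had an FPKM of 4.73 in callus (95% confidence interval 3.50 to 5.96) and of 2.25 and 2.85 in the root samples, whose intervals reached up to 3.77 and so overlapped that of callus. Leaf 1 and silique held 1 fragment each (0.0501 and 0.0904), and leaf 2, stem and flower were listed at 0. Against the limit of 3 fragments, callus was at least 16.6-fold higher than stem and at least 21.0-fold higher than flower.

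Bra016553 was the most abundant MYB51 homologue in each of the 8 samples, but its share differed. It was lowest in root (65.1% and 63.2% of the summed FPKM of the group) and 72.0% in callus, against 88.3% and 93.5% in leaf and 93.3% in stem. The 95% Wilson interval from the implied fragments was 61.1% to 69.8% in root 1, 57.8% to 69.0% in root 2, 69.2% to 75.5% in callus and 84.5% to 97.5% in stem, and covers counting error only. The interval of callus overlapped that of root 1 and lay apart from those of root 2 and stem. Bra016553 exceeded Bra031035 by 2.55-fold and 2.67-fold in root and by 3.51-fold in callus, compared with 8.33-fold and 14.4-fold in leaf and 13.9-fold in stem.

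**Figure D3:**
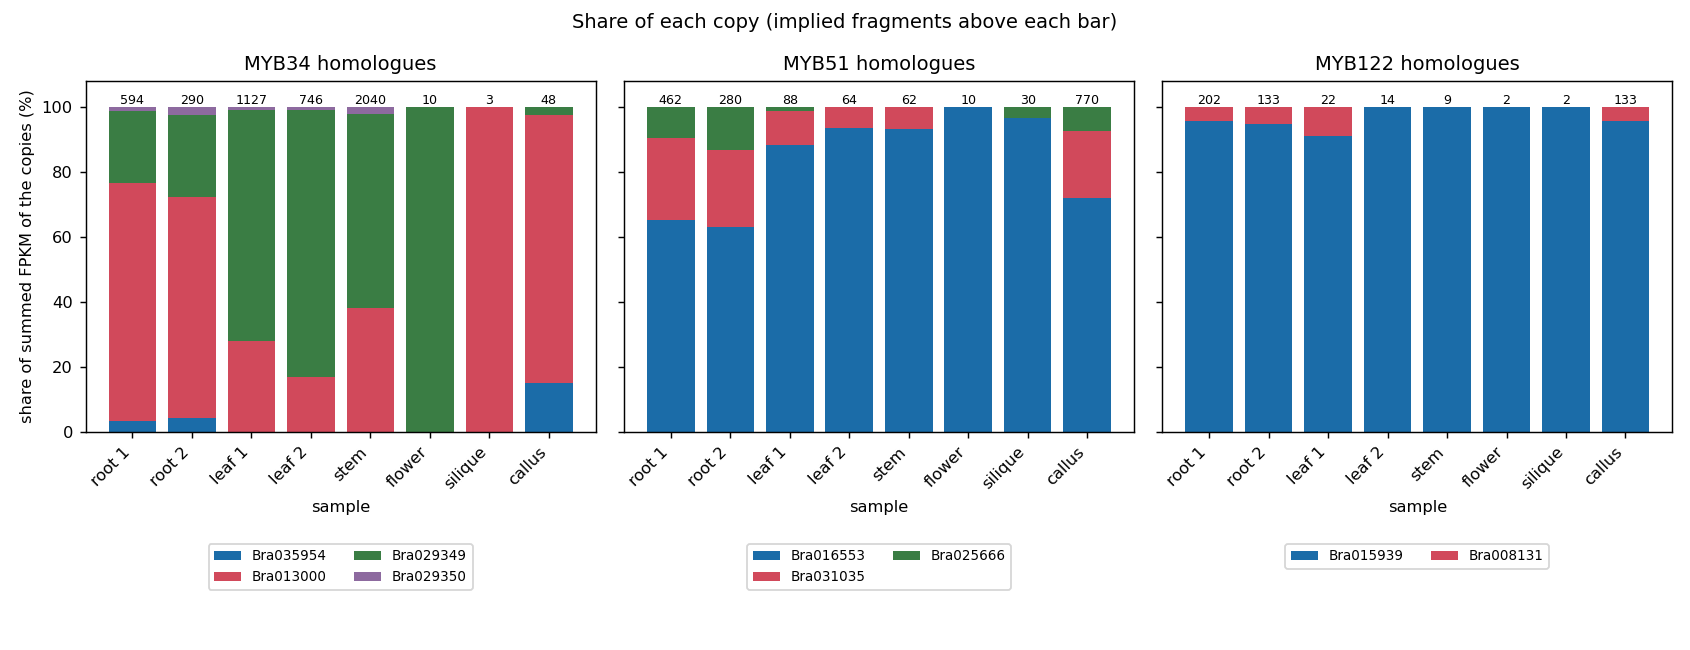
Share of each copy in the summed FPKM of the homologues of the same gene, in percent, in the 8 samples, with the summed implied fragments above each bar. Bra013000 was the larger share in root and callus and Bra029349 in leaf and stem, whereas Bra016553 and Bra015939 were the larger share in every sample. Bars with few fragments (10 or fewer in flower) are imprecise.

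Of the MYB122 homologues, Bra015939 was far more abundant than Bra008131. Bra015939 lies on Scaffold000019 from 1581635 to 1583239 and had an FPKM of 10.7 in callus (95% confidence interval 8.76 to 12.5) and of 10.1 and 9.88 in root. Callus and root differed by 1.07-fold, and their intervals overlapped. It was 1.05 and 1.11 in the leaf samples and 0.896 in stem, which overlapped each other, and it was not expressed in flower (0.157) and silique (0.189), with 2 fragments in each. Root exceeded the mean of leaf by 9.26-fold.

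Bra008131, on Scaffold000007 from 1945713 to 1947718, had the lowest maximum of the 9 genes. Its FPKM was 0.459 and 0.536 in root and 0.491 in callus, on 9, 7 and 6 fragments, and 0.102 in leaf 1, on 2 fragments. Leaf 2, stem, flower and silique were listed at 0. It was expressed only in root and callus by the confidence interval, at a depth where 3 fragments correspond to an FPKM of 0.153 to 0.292. Bra015939 exceeded it by 22.0-fold and 18.4-fold in root and 21.7-fold in callus, and made up 95.6%, 94.9% and 95.6% of the group there.

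Counting over the 9 genes, 45 of the 72 values were expressed by the confidence interval and 18 were listed at 0. All 9 genes were expressed in both root samples and 7 in callus. The number was 6 in stem, 6 and 5 in the leaf samples, 2 in flower and 1 in silique. The count in stem includes Bra031035, whose lower bound there was a rounding residue. Without that residue the total was 44. Over all gene models, between 64.4% (leaf 2) and 73.6% (root 1) were expressed in a sample, and 69.3% in flower and 66.3% in silique. The tissue with the highest mean FPKM was callus for 4 genes, stem for 3 and root for 2, the latter being Bra035954 and Bra008131. Over the 33082 gene models expressed in at least one sample these tissues were the highest for 14.2%, 25.0% and 19.6%. The intervals of root and callus overlapped for Bra025666, Bra015939, Bra035954 and Bra008131, so which of these tissues was highest was not resolved for them. For Bra008131 the means of root and callus differed by 1.01-fold. Its maximum moved to callus when the samples were scaled to the same upper quartile or without their 4 most abundant genes.

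Tissue breadth was described by the index T, which is 0 for a gene with equal expression in all tissues and 1 for a gene expressed in a single tissue. T was highest for the MYB34 homologues with a maximum in stem, at 0.953 for Bra029350, 0.912 for Bra029349 and 0.909 for Bra013000. It was 0.902 for Bra031035, 0.887 for Bra025666, 0.878 for Bra016553 and 0.838 for Bra035954. The MYB122 homologues, with similar levels in root and callus, had the lowest values, 0.782 for Bra008131 and 0.769 for Bra015939. The median of the 9 genes was 0.887, and the median of the 33082 expressed gene models was 0.679. The order of the genes by T depended on the scale. On log2(FPKM + 1), Bra029350 was still highest at 0.898, but Bra029349 (0.724) and Bra013000 (0.660) fell below Bra025666 (0.842) and Bra008131 (0.777). The lowest value was then that of Bra016553 (0.574), and Bra015939 was at 0.667.

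Leaf and root, the only tissues with 2 samples, were compared with limma on log2(FPKM + 1) over the 25725 genes whose FPKM was 1 or more in 2 or more of the 4 samples. Of the 9 genes, 7 passed this filter, and of these 6 had an adjusted p under 0.05, 5 lower in leaf and 1 higher in leaf. Bra035954, Bra031035 and Bra025666 reached the filter through root alone, so for them the direction was set by it and their calls are not support. Among all genes tested, 51.0% were called, 34.6% lower in leaf and 16.3% higher in leaf, so a call in itself was common. The median gene was 0.47 lower in leaf on this scale. The median of the 7 genes, those with a direction set by the filter included, was -1.55. With the samples scaled to the same upper quartile, the median gene was at -0.19. Per the methods, the 2 samples of a tissue came from different batches of plants. The p-values do not measure the spread of a gene between these samples alone, because limma moderates it by that of the other genes tested. For Bra035954 the SE was 0.15 with the filter and 0.023 without it.

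Bra029349 was the gene higher in leaf, by 2.76 on the log2 scale (SE 0.25, adjusted p = 0.000153 by limma), with both leaf samples above both root samples, and by 3.23 relative to the median gene. Bra013000, the other abundant MYB34 homologue, differed by -0.43 (SE 0.33, adjusted p = 0.306 by limma), close to the median gene, and its samples overlapped. Within each sample number, root was above leaf (24.1 against 18.6 and 16.5 against 11.4). A fit blocked on that number called the gene, but the labels do not say that a number marks a shared batch. Bra035954 was lower in leaf by 1.03 (a log2 difference of -1.03, SE 0.15, adjusted p = 0.00116 by limma). It reached the filter through root alone, so this p-value is not support. Since Bra035954 was listed at 0 in leaf, root was at least 4.07-fold higher when leaf was set at 3 fragments per library.

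The 3 MYB51 homologues were all lower in leaf, but Bra031035 and Bra025666 reached the filter through root alone. Their direction was thus set by the filter, and their p-values are not support. The log2 difference was -2.23 for Bra031035 (SE 0.22, adjusted p = 0.000228), -1.79 for Bra025666 (SE 0.18, adjusted p = 0.000263) and -1.55 for Bra016553 (SE 0.25, adjusted p = 0.00232), in limma with Benjamini-Hochberg adjustment. For Bra016553 the call was lost without root 1 (adjusted p = 0.0747) or without root 2 (adjusted p = 0.0563), with values of -1.46 and -1.64, and it held without leaf 1 (0.0368) or leaf 2 (0.0322). Over its 13 alternatives the adjusted p ranged from 5.9e-06 to 0.0747. These fits have a single sample in 1 tissue, which is assumed to vary like the other tissue. Bra015939, the abundant MYB122 homologue, had a log2 difference of -2.40 (SE 0.24, adjusted p = 0.000232). For Bra016553 and Bra015939, which did not reach the filter through root alone, both root samples were above both leaf samples. The order of these log2 differences depends on the pseudocount, which weighs most on genes near 0 in leaf: with 0.1 in place of 1, the difference was -4.42 for Bra025666, -3.52 for Bra031035, -3.51 for Bra035954, -3.10 for Bra015939 and -1.73 for Bra016553.

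Bra029350 and Bra008131 did not reach the filter. Without it, over all 38200 gene models, the log2 difference was 0.09 for Bra029350 (adjusted p = 0.458 by limma) and -0.51 for Bra008131 (adjusted p = 0.0258). The latter rests on 2 fragments in leaf 1 and none in leaf 2.

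**Figure D4:**
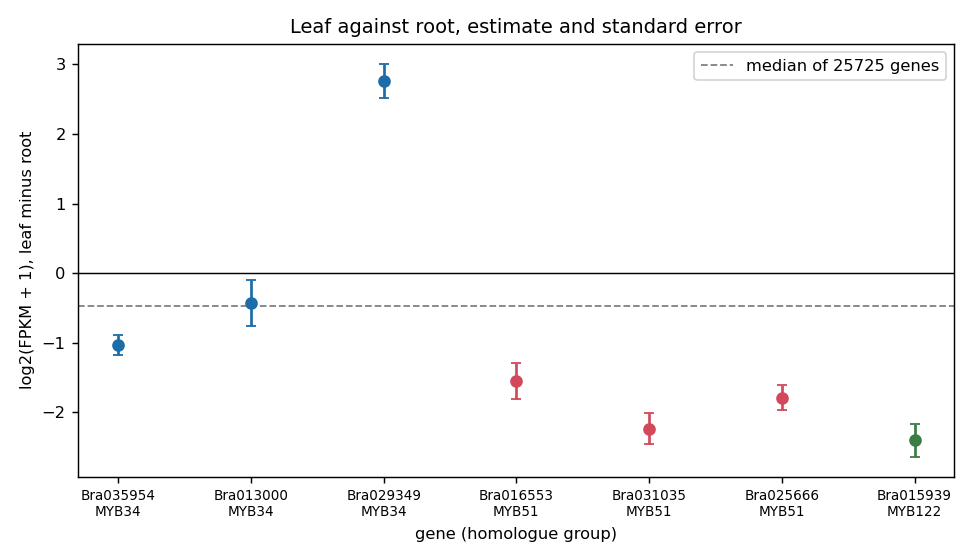
Difference in log2(FPKM + 1) of leaf minus root for the 7 genes that passed the filter, with the standard error from limma as the bar and the median of all 25725 genes as a dashed line. Bra029349 was 2.76 higher in leaf, Bra013000 was close to the median gene, and the other 5 genes were lower in leaf, with an order among them that changes with the pseudocount. Of these 5, Bra035954, Bra031035 and Bra025666 reached the filter through root alone, so their direction was set by it.

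A moderated F test in limma asked whether a gene differed among the 6 tissues at all, over the 30941 genes that reached an FPKM of 1 in any sample. In this fit the spread comes from the root and leaf pairs, and stem, flower, silique and callus are assumed to vary like them. All of the 8 genes that passed the filter had an adjusted p under 0.05, and 60.9% of all genes tested did. Several reached the filter only where they are high, Bra035954 in root, Bra029350 in stem, and Bra031035 and Bra025666 in root and callus, so that a difference was favoured for them by the filter and their count is not support. The adjusted p was 0.00187 for Bra029349, 0.00244 for Bra015939, 0.00507 for Bra016553 and 0.0104 for Bra013000. For Bra013000 it was 0.0619 without root 1 and 0.0590 without root 2. Bra008131 was not tested, because its FPKM was below 1 in every sample.

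The copies were also compared by their patterns over the samples. Pearson's r of log2(FPKM + 1) is given as a description over 8 samples, of which 2 pairs share a tissue. Among Bra013000, Bra029349 and Bra029350 r was 0.82 to 0.83. Of 20824 other genes, 5.10% to 5.64% had at least as high an r with the first-named copy of a pair. Among the MYB51 and MYB122 homologues r ranged from 0.85 (Bra016553 with Bra008131) to 0.98 (Bra031035 with Bra025666). For these pairs the share of other genes was 2.13% and 0.202%. Bra035954, although a MYB34 homologue, had r of 0.94 and 0.93 with the MYB122 homologues Bra015939 and Bra008131 and 0.79 to 0.89 with the MYB51 homologues, against 0.36 with Bra013000 and -0.17 with Bra029349. An r with Bra035954 at least as high was reached by 1.68% and 1.99% of other genes for the MYB122 homologues. For the MYB51 homologues it was 3.69% to 7.96%. The values of Bra035954 rest on 40 fragments in all, and those of Bra008131 on 24. Without the 2 samples farthest from the median of Bra035954, its r was 0.91 with Bra015939, 0.87 with Bra008131 and -0.25 with Bra029349. With the MYB51 homologues it was then 0.913 to 0.935. Spearman's rho of Bra035954 over 8 samples was 0.74 with Bra015939 and 0.75 with Bra008131. With the MYB51 homologues it was 0.86 (Bra016553), 0.80 (Bra031035) and 0.66 (Bra025666). Which of these groups Bra035954 resembled more thus depended on the measure.

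**Figure D5:**
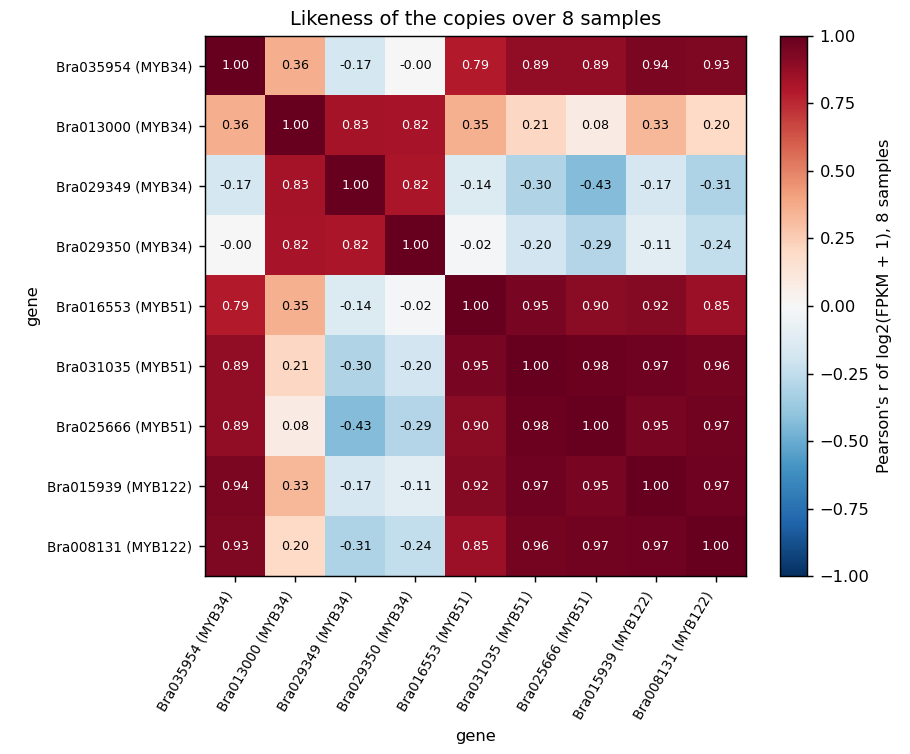
Pearson's r between the 9 genes, computed on log2(FPKM + 1) over the 8 samples, from -1 (blue) to 1 (red). Bra013000, Bra029349 and Bra029350 had r of 0.82 to 0.83 with each other, and Bra035954 had r of 0.79 to 0.94 with the MYB51 and MYB122 homologues. An r at least as high was reached by 5.10% to 5.64% of other genes for the former and 1.68% to 7.96% for the latter.

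The gene outside the 9 with the most similar pattern was sought for the most abundant copy of each group, among 20824 genes that reached an FPKM of 5 in 2 or more samples. For Bra029349 it was Bra008679, on Scaffold000008 from 555273 to 557543, with r of 0.992 over 8 samples. It had 22.5 FPKM in stem and 14.7 and 14.9 in leaf. For Bra016553 it was Bra009113, on Scaffold000008 from 2489976 to 2492377, with r of 0.980. It had 187 FPKM in callus, and 45.7 and 51.2 in root. For Bra015939 it was Bra004062, on Scaffold000003 from 5165715 to 5166228, with r of 0.997. It had 84.7 FPKM in callus, and 93.2 and 81.5 in root. A value of r above 0.95 was reached by 77 genes for Bra029349, 51 for Bra016553 and 185 for Bra015939, which are 0.370%, 0.245% and 0.888% of the genes compared. These identifiers are not paired with gene names in the sources used here.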

How the data were processed

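RNA-seq was measured in 8 samples of 6 tissues, grouped by the sample titles. The deposited table gives FPKM, computed by the authors, and 95% confidence bounds for 38200 gene models on 423 scaffolds. Per the paper's methods, trimming and filtering of reads preceded mapping with TopHat to the *B. rapa* genome v1.5, and Cufflinks gave the FPKM from reads with a unique position, which would leave out fragments shared by near-identical copies. The submitters' processing notes name TopHat 1.0.13, an older release than in those methods, and the table places genes on scaffolds, so whether it came from the run described there is not known.

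Implied fragments were computed as 4 times the square of the FPKM divided by the squared distance from the upper bound, which holds for counting error alone. Below 200 fragments, 87.6% to 92.6% of the values in a sample came out whole within 0.05. Relative depth is the median of fragments per FPKM across 19422 genes that every sample expressed. Intervals and the limit of 3 fragments cover counting error only and not the spread between plants.

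Leaf and root were compared with limma (lmFit, eBayes with a mean-variance trend, Benjamini-Hochberg adjustment) on log2(FPKM + 1), a scale that understates the change of low genes. The F test among 6 tissues used the same settings. Both were run on simulated data with independent samples and the same spread for all genes. That setting is simpler than these data, so no conclusion on the calls is drawn from it. T was computed as in the paper's methods, and root and leaf entered it as means. The members and lists were chosen with earlier results of these data known. Outside the members, the text names the gene with the highest r to the most abundant copy of each group. Of the 38200 identifiers, 1 was found in the gene names of assembly CAAS_Brap_v3.01, and none of the 9 genes, so pathway enzymes, tissue markers and sequences were not analysed here. Alternatives covered the pseudocount, filters, scaling, the trend, the samples in the fit, the replicate block, the detection rule, the definition of T, shares by fragments, and each root and leaf sample left out. The software was R 4.3.3, limma 3.58.1, Python 3.11.15, matplotlib 3.10.9, scipy 1.17.1, pandas 2.3.3 and numpy 2.4.6.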

Additional observations from a re-analysis of the deposited data

How the results depend on the processing

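For the levels, both scalings, leaving out callus and leaving out single root or leaf samples were chosen after seeing the data, as were the tolerance on the lower bound and the F test without callus. Over 13 alternatives the leaf-root difference of Bra029349 stayed between 2.65 and 3.08 and that of Bra015939 between -3.10 and -2.15, with adjusted p of at most 0.0148 and 0.0132 in limma. The low genes moved more, with Bra035954 from -3.51 to -0.94 and Bra025666 from -4.42 to -1.67 over 12 alternatives, lowest with a pseudocount of 0.1. No difference changed sign. Scaling to the same upper quartile moved the median gene from -0.47 to -0.19 (log2), and Bra013000 to -0.12. Of the genes called, 32.1% were higher in leaf, against 42.0% with the upper quartile and 42.5% with the median scaled (5750 higher and 7784 lower). With an FPKM of at least 5, 3 members were lower in leaf, and 5 differed among tissues, since fewer were tested. The 3 were Bra016553, Bra031035 and Bra015939, which reached that filter through root alone. Their direction was thus set by it, and their calls under it are not support. In the F test, Bra031035 and Bra015939 reached an FPKM of 5 only in root and callus, where they are high, so a difference was favoured for them.

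The replicate block gave 14109 genes lower in leaf, against 8905 without it, and called Bra013000 (adjusted p = 0.00834 by limma). The differences of sample 2 from sample 1 in leaf and root had r of 0.64 across genes, but the labels do not say that a number marks a shared batch. With each root or leaf sample left out in turn, 2721 to 3494 genes were higher and 4387 to 6313 lower in leaf, and 8732 to 9258 differed among tissues, against 4204, 8905 and 18858.

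The number of members highest in root was 2, and 1 with the upper quartile scaled or without the 4 most abundant genes of each sample, 6 without callus, and 1 to 2 with a root or leaf sample left out. Detection gave 45 values, and 32 at an FPKM of at least 1, 54 above 0, 41 after thinning to the depth of stem and 44 without the rounding residue. The median T of the members was 0.777 on the log2 scale and 0.854 over 8 samples, with no median of all genes beside them. Bra029349 made up 56.8% of the fragments of the MYB34 homologues in stem. Spearman's rho was 0.905 for Bra029349 with Bra008679 and for Bra015939 with Bra004062. Depth limits the low copies: Bra008131 rests on 24 fragments and Bra035954 on 40.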
